A study of Mus musculus with 36 samples.

Results

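The PIKfyve complex makes the rarest of the signalling lipids of late endosomes and lysosomes, and its 3 genes, Pikfyve, Vac14 and Fig4, are described here among the 30205 genes quantified in mouse bone cells. The members were chosen by symbol, and Pikfyve was picked on its higher level in Mir324-null than in wild-type osteoblasts. Its values in that comparison are therefore given as a description without a test. Vac14 and Fig4 came with it as partners of the same complex and were not picked on their own values. The 36 RNA-seq libraries fall into 6 groups of 6, from mice labelled wild-type control (WT) or Mir324-null (null), which lack the gene for the microRNA miR-324. Bone marrow macrophages (BMM), the precursors of osteoclasts, were grown from flushed marrow of long bones of 20-week-old mice and cultured with M-CSF, a growth factor, at 30 ng/mL over 5 days. Osteoclasts (OC), the cells that resorb bone, came from the same kind of culture given RANK-L, their differentiation cytokine, at 50 ng/mL beside M-CSF at 30 ng/mL, also over 5 days. Osteoblasts (OB), the cells that form bone, grew out of collagenase-treated bone fragments, also of 20-week-old mice. They spent 18 days in medium with β-glycerophosphate and ascorbic acid. The labels do not say how the null allele was made, nor whether the 6 libraries of a group come from separate mice, so p-values measure only the spread between these libraries, which may be technical.

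PIKfyve is a lipid kinase that is recruited to endosomes by phosphatidylinositol 3-phosphate (PI3P) and converts it to PI(3,5)P2. Vac14 is the scaffold that holds the kinase, and Fig4 is a phosphatase that removes the added phosphate and is also needed for full kinase activity. Cells without a working complex fill with large vacuoles, and PI(3,5)P2 acts on ion channels and transporters of the lysosome, the organelle that osteoclasts secrete at the bone surface.

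The annotation (GENCODE M21, build GRCm38) placed Pikfyve on chromosome 1 from 65186683 to 65278695 on the plus strand, Vac14 on chromosome 8 from 110618585 to 110720398 on the plus strand, and Fig4 on chromosome 10 from 41188172 to 41303260 on the minus strand. The deposited tables list 10 Pikfyve transcripts, 1 of Vac14 and 1 of Fig4. The small nucleolar RNA gene Gm25526 (chromosome 10, 41216045 to 41216176, plus strand) lies inside the span of Fig4 on the other strand. Whether it overlaps an exon of Fig4 was not checked, and whether the libraries keep strand is not given in the sources used here. If it does overlap an exon, reads of the pair may not be told apart.

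The mature strands of miR-324 are shown because their absence defines the null groups, with the seed (bases 2 to 8, the part that pairs with targets) in capitals, from RefSeq (GRCm38.p6).
mmu-miR-324-5p: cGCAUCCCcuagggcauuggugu
mmu-miR-324-3p: cCACUGCCccaggugcugcu
They lie on chromosome 11 at 70012060 to 70012082 and 70012095 to 70012114, on the plus strand. The sequences that pair with the whole seed, GGGATGC for the 5p strand and GGCAGTG for the 3p strand, were searched on the sense strand of the annotated 3′ UTR of each member's transcript. Neither occurred in the 3′ UTR of Pikfyve (4937 bases), Vac14 (429 bases) or Fig4 (350 bases). Among 1094 UTRs of lengths like that of Pikfyve, 22.9% held the first and 35.9% the second. These letters being absent says nothing of other kinds of pairing.

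Upstream, Pikfyve is separated by 182 bases from Idh1 (chromosome 1, 65158616 to 65186500, minus strand), the gene of cytosolic isocitrate dehydrogenase, which is transcribed away from it. The RefSeq promoter window of Pikfyve (GRCm38.p6, chr1:65186435-65186734, plus strand) is shown because it spans the whole interval between these divergent genes, which is in capitals.
Pikfyve promoter: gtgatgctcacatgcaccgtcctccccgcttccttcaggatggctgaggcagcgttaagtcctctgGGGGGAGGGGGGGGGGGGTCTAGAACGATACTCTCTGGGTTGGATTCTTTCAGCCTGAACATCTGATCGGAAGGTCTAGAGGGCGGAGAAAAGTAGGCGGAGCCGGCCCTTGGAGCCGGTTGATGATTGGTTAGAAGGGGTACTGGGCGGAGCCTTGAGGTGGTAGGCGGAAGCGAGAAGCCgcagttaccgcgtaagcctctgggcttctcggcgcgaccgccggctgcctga
The E-box CACGTG, which reads the same on both strands, was found in the promoter window of Vac14 and not in those of Pikfyve, Fig4 or Idh1. Of 32851 promoter windows, 7.15% held it.

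The libraries held 14118972 to 26347581 estimated counts each. Cell type marker lists were summed per library, since they bear on every comparison below. The 10 osteoclast markers summed to a median of 32172 TPM (transcript abundance per length, scaled to the same total in each library) in WT OC (31382 to 35719) and 376 TPM in null OC (258 to 587), with Calcr at 0 in all null OC libraries, and 10 of 10 were lower in null OC. So the cultures labelled null OC did not carry the marker level of their label. Markers were counted as higher or lower at an edgeR adjusted p under 0.05. Of all genes tested, 65.6% passed it in null against WT OC, 52.3% in BMM and 32.5% in OB. The 10 macrophage markers had median sums of 7011 TPM in WT OC and 13680 TPM in null OC, and 8 of 10 were higher in null OC. In BMM their median sums were 19414 TPM in WT and 14626 TPM in null, with 1 of 10 higher and 8 lower in null. In OB, the 10 osteoblast markers had a median sum of 28382 TPM in WT (25868 to 37091) and 52132 TPM in null (43489 to 56818), with 6 of 10 higher in null. The OB cultures also held macrophage markers at a median sum of 7199 TPM in WT and 5032 TPM in null, with 8 of 10 lower in null, and osteoclast markers at 4886 and 6548 TPM. The 8 neutrophil markers were near 1 TPM in WT BMM and WT OC (medians 1.26 and 0.84) and summed to 43.3 to 105 TPM in null BMM and 40.2 to 54.2 TPM in null OC. That sum was nearly all S100a8, at a median of 68.8 TPM in null BMM and 47.8 TPM in null OC, and 1 of the 8 passed the filter; S100a9, Elane and Ltf were at 0 in all null BMM libraries, and Ly6g, Elane, Ltf and Ngp in all null OC libraries. The part of these shifts in the results on the complex was not tested.

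All 3 members passed the filter on low counts in every comparison. In TPM, which compares genes per length, Fig4 had the highest mean of the members in each group and Vac14 the lowest. Among WT cells, the macrophage lineage carried more of each gene than OB. Pikfyve ranged from 10.4 to 14.0 TPM in BMM (median 11.5), from 8.22 to 11.9 TPM in OC (median 9.10) and from 3.82 to 4.81 TPM in OB (median 4.14). No WT OB library reached the lowest WT BMM or WT OC library. The pick of Pikfyve also used its WT OB libraries, so its log2 differences on summed counts, -1.30 from WT BMM and -0.82 from WT OC, are a description without a test. Vac14 was lower in WT OB than in WT BMM by log2 -1.39 (SE 0.15, edgeR quasi-likelihood test with Benjamini-Hochberg adjustment, adjusted p = 2.81e-10) and than in WT OC by -1.07 (SE 0.15, adjusted p = 9.72e-08). Fig4 was lower by -0.79 (SE 0.09, adjusted p = 2.84e-10) and -0.85 (SE 0.09, adjusted p = 4.70e-11). The threshold for a call was an adjusted p of 0.05. Of all genes tested, 76.8% were called in OB against BMM and 77.9% in OB against OC, so a call by itself sets no member apart. In bulk RNA, fewer cells of a type and less RNA per cell cannot be told apart.

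**Figure D1:**
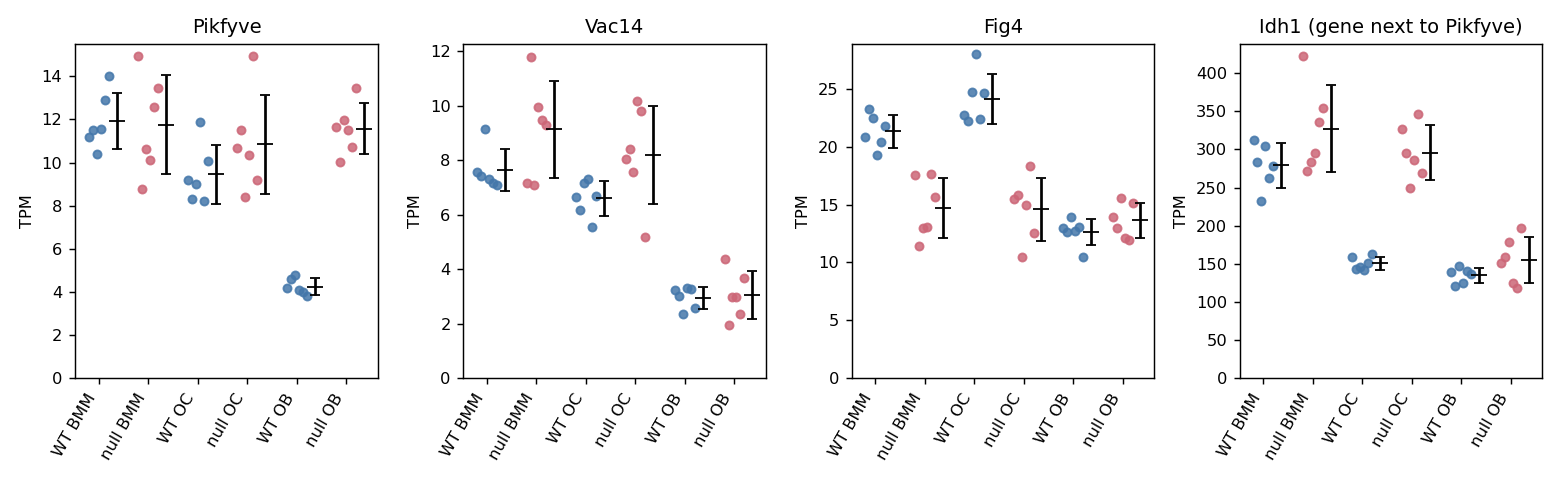
TPM of the 3 members and of the neighbouring gene Idh1 in each of 36 libraries (points) with the mean and SD of 6 libraries (bars), by genotype and cell type. Pikfyve in WT OB (3.82 to 4.81 TPM) lies below the other 5 groups, Vac14 is low in OB of both genotypes, and Fig4 is high in WT BMM and WT OC.

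Ordered by mean TPM, Pikfyve ran from WT BMM (11.9 ± 1.3, SD, n = 6) through null BMM (11.8 ± 2.3), null OB (11.6 ± 1.2), null OC (10.8 ± 2.3) and WT OC (9.45 ± 1.37) to WT OB (4.25 ± 0.38). Only the last step, from WT OC to WT OB, separated neighbours whose libraries did not overlap. The level in null OB lay among those of the macrophage lineage, and the WT OB level stood alone. The pick used both OB groups and favours such a placing, so it is a description. Vac14 ran from null BMM (9.13 ± 1.77) through null OC, WT BMM and WT OC (6.60 ± 0.66) to null OB (3.05 ± 0.87) and WT OB (2.96 ± 0.40), and only WT OC and null OB did not overlap as neighbours. Fig4 ran from WT OC (24.1 ± 2.2) and WT BMM (21.3 ± 1.4) to null BMM (14.7 ± 2.6), null OC (14.6 ± 2.7), null OB (13.6 ± 1.5) and WT OB (12.6 ± 1.2), with its gap between WT BMM and null BMM.

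The kinase gene itself was read first across genotypes. In OB, the comparison it was picked on, Pikfyve ranged from 3.82 to 4.81 TPM in WT (median 4.14) and from 10.01 to 13.5 TPM in null (median 11.6). Every null library lay above every WT library. The log2 fold change on summed counts was 1.50 (SE 0.06), a 2.83-fold higher level. Of all genes, 32.5% were called in this comparison.

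Longer transcripts tended to be higher in null OB. Across genes, transcript length and the log2 change had a Spearman rho of 0.55, while BMM had -0.20 and OC 0.01. Genes are not independent replicates. Pikfyve, with a TPM-weighted length of 7765 bases, is long. The 582 tested genes between 6212 and 9707 bases had a median log2 change of 0.35 in OB (5th to 95th percentile -0.15 to 0.84). Of them, 4 lay above Pikfyve, a place that follows from the pick. In the comparisons it was not picked on, 64 of 492 such genes lay above it in BMM and 53 of 501 in OC. With an offset for the dependence on length and GC content in each library, its value was 1.16 (SE 0.07).

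In BMM, Pikfyve ranged from 10.4 to 14.0 TPM in WT (median 11.5) and from 8.79 to 14.9 TPM in null (median 11.6), and the groups overlapped throughout. Its summed counts were nevertheless higher in the null libraries, with a log2 change of 0.59 (SE 0.10, edgeR adjusted p = 0.000167), where 52.3% of all genes were called. In OC it ranged from 8.22 to 11.9 TPM in WT (median 9.10) and from 8.41 to 14.9 TPM in null (median 10.5), again overlapping. The summed counts were higher in null OC by 0.92 (SE 0.10, edgeR adjusted p = 6.29e-07), with 65.6% of genes called. Counts grow with transcript length and TPM does not, and in the null libraries more of the gene was assigned to its longest transcript. The average effective length of Pikfyve was 6098 bases in WT BMM and 8536 in null BMM, 6045 and 8643 in OC, and 7154 and 8477 in OB. With an offset for that length the BMM value was 0.12 (adjusted p = 0.295) and the OC value 0.41 (adjusted p = 0.00296). On log2(TPM + 0.1), tested with limma, they were -0.04 (adjusted p = 0.836) and 0.18 (adjusted p = 0.257). On that scale the median of all genes itself lay at -0.15 in BMM, -0.25 in OC and 0.17 in OB. Relative to those medians Pikfyve stood at 0.12 in BMM, 0.43 in OC and 1.25 in OB.

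**Figure D2:**
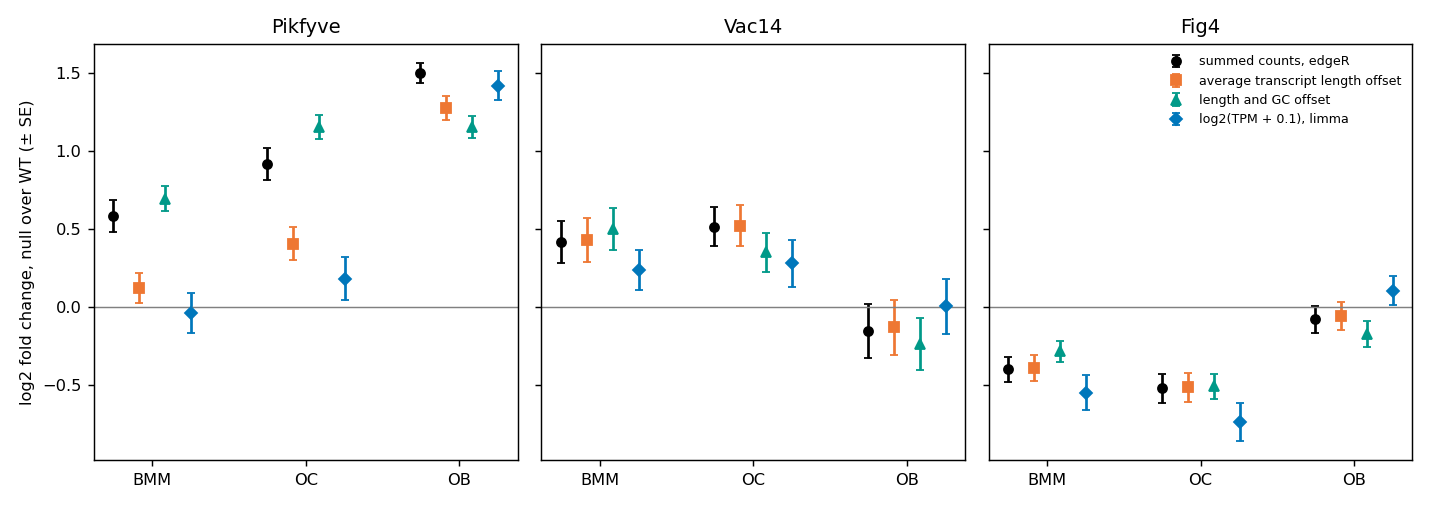
Log2 fold change of null over WT (y axis, with SE) for each member in BMM, OC and OB, from summed counts and from 3 other treatments of the same data. Pikfyve in BMM falls from 0.59 on counts to 0.12 with the average transcript length offset and -0.04 on TPM, while Fig4 in OC lies between -0.51 and -0.74 in all 4.

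The single transcripts show where the genotypes differ. Pikfyve-201 (11237 bases, 42 exons) is protein-coding and is called full-length here because it spans the whole gene. It lacks an exon, 37.479 to 37.646 kb from the gene start, that Pikfyve-202, Pikfyve-205 and Pikfyve-209 carry. Reads of that exon cannot be assigned to Pikfyve-201, and the part of this in the shares below was not tested. Of the 10 listed transcripts, 6 held at least 5% of the gene's TPM in some group. The others among these 6 are Pikfyve-205 (4266 bases), Pikfyve-206 (2250), Pikfyve-204 (1044) and Pikfyve-210 (651), annotated as retained-intron transcripts, and Pikfyve-208 (1303), a processed transcript. All 5 lie in the 5′ part of the gene and are not annotated as coding, and they share exons with Pikfyve-201, so their separate levels are estimates. The other protein-coding transcript, Pikfyve-202, was listed at 0 in every library.

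**Figure D3:**
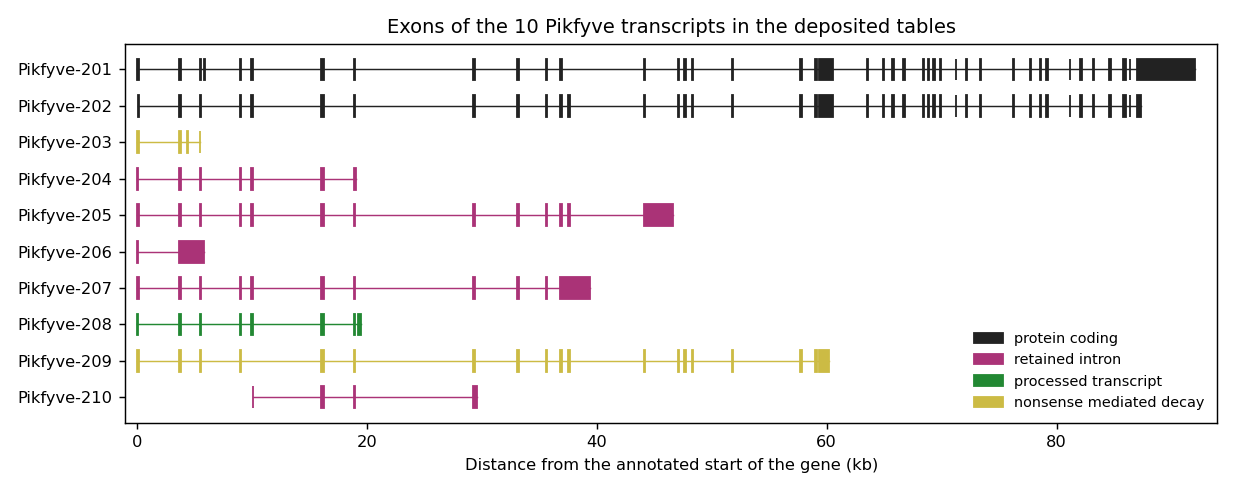
Exons (boxes) and introns (lines) of the 10 Pikfyve transcripts against distance from the annotated start of the gene in kb, coloured by annotated type. Pikfyve-201 and Pikfyve-202 span the whole gene, and the retained-intron and processed transcripts end before its midpoint or soon after it.

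Pikfyve-201 made up 36.6% to 46.7% of the gene's TPM in WT BMM (median 42.7%) and 60.5% to 73.0% in null BMM (median 69.7%). In OC its share was 35.2% to 40.6% in WT (median 38.2%) and 65.7% to 70.5% in null (median 69.1%). No null library overlapped a WT library in either cell type. The difference in mean share was 25.8 percentage points in BMM and 30.4 in OC, each with an exact two-sided permutation p of 0.00216, the smallest that 6 libraries against 6 can give (0.00433 after Benjamini-Hochberg adjustment over 12 tests). In OB, as a description, the share was 44.8% to 56.7% in WT and 59.99% to 71.4% in null, without overlap.

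In level, Pikfyve-201 was at 4.08 to 6.51 TPM in WT BMM (median 4.84) and 6.41 to 9.53 TPM in null BMM (median 7.71), which overlap slightly. It was at 3.24 to 4.49 TPM in WT OC (median 3.42) and 5.81 to 10.4 TPM in null OC (median 7.26). In OB it was at 1.90 to 2.27 TPM in WT (median 2.19) and 6.92 to 8.85 TPM in null (median 7.37). Its rise was tested by exact permutation in BMM (p = 0.00433, adjusted 0.0104) and OC (p = 0.00216, adjusted 0.00866), a test chosen after the transcript values were seen. The full-length transcript was thus higher in null cells of the macrophage lineage, although the gene's total TPM did not pass the test there.

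Of the 5 short transcripts, Pikfyve-208 took a smaller share of the gene in null cells of both BMM and OC, Pikfyve-205 and Pikfyve-206 in OC but past no threshold in BMM, and Pikfyve-204 and Pikfyve-210 passed in neither. Pikfyve-204, Pikfyve-206, Pikfyve-208 and Pikfyve-210 reached a mean share of 5% only in WT groups, so the choice of transcripts favoured falls in null cells. The shares of a gene add up to its whole, so these falls are also not independent of the rise of Pikfyve-201. Pikfyve-208 was at 1.17 to 2.02 TPM in WT BMM (median 1.61) and 0 to 0.22 TPM in null BMM (median 0.13). It was at 0.33 to 1.10 TPM in WT OC (median 0.63) and 0 to 0.27 TPM in null OC (median 0.10). Neither pair overlapped, and its share of the gene fell by 12.8 percentage points in BMM and by 5.95 in OC (exact permutation p = 0.00216 each, adjusted 0.00433). These levels rest on few reads, since no library gave Pikfyve-208 more than 27.7 estimated counts. Pikfyve-205 kept most of the remaining TPM. Its share fell in OC, from 35.6% ± 4.2 to 22.0% ± 2.1 (SD, n = 6 each; exact permutation p = 0.00216, adjusted 0.00433), and was 23.97% ± 2.09 and 21.4% ± 3.9 in BMM (exact permutation p = 0.195). Pikfyve-206 fell in OC from 8.01% to 3.50% of the gene (exact permutation p = 0.00216, adjusted 0.00433) and was at 4.45% and 3.15% in BMM (exact permutation p = 0.225). Pikfyve-204 was at 5.22% in WT and 1.54% in null BMM (exact permutation p = 0.110, adjusted 0.147), and at 5.48% and 1.59% in OC (p = 0.0368, adjusted 0.0631). Pikfyve-210 was at 6.40% and 3.49% in BMM (exact permutation p = 0.206) and at 3.47% and 1.24% in OC (p = 0.0866, adjusted 0.130). As a share of estimated counts, Pikfyve-204 and Pikfyve-210 in OC and Pikfyve-205 in BMM did pass (exact permutation, adjusted p = 0.0292, 0.0491 and 0.00742).

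Summed, the transcripts other than Pikfyve-201 had means of 6.84 TPM in WT BMM and 3.82 in null BMM, and 5.86 in WT OC and 3.41 in null OC. In OB they were at 2.12 TPM in WT and 3.96 in null, so there both kinds of transcript were higher in null cells. Retained-intron transcripts of all genes held a median of 2.74% of TPM in WT BMM and 2.62% in null BMM, 3.09% and 2.44% in OC, and 2.83% and 3.06% in OB, the same order of genotypes in each cell type as for this sum. The part of this general shift in the Pikfyve shares was not tested. In effective length, Pikfyve's log2 shift of 0.49 in BMM was exceeded by 73 of 7926 genes with at least 2 transcripts, that of 0.52 in OC by 64 of 8053 and that of 0.24 in OB by 197 of 9105.

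**Figure D4:**
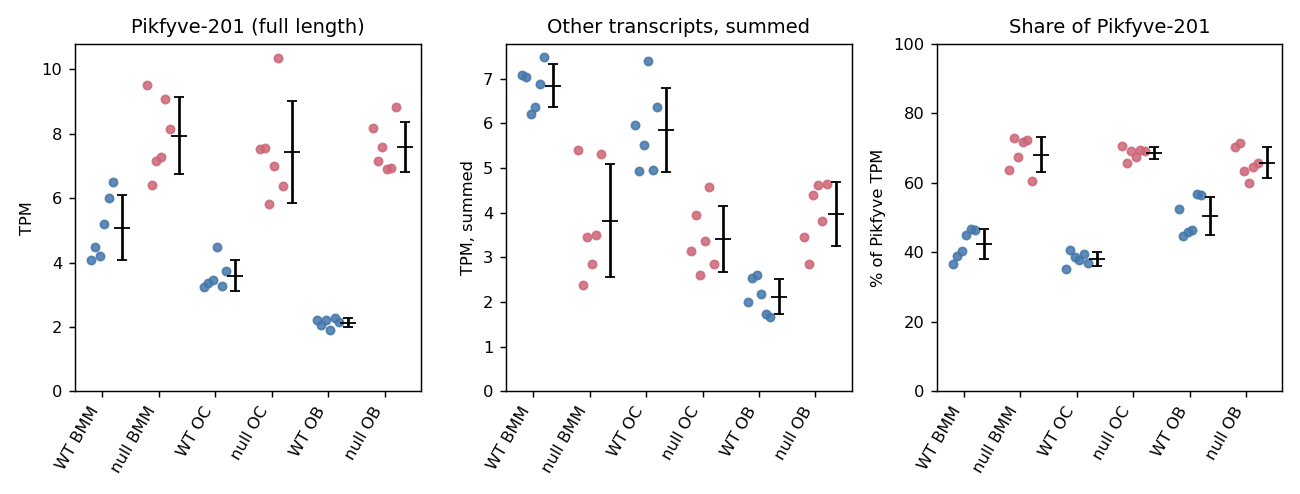
TPM of the full-length transcript Pikfyve-201, summed TPM of the other listed transcripts, and the share of Pikfyve-201 in the gene's TPM, for each library (points) with the mean and SD of 6 (bars). The share lies between 35.2% and 56.7% in all WT libraries and between 59.99% and 73.0% in all null libraries.

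Vac14, the scaffold, was modestly higher in null cells of the macrophage lineage and not in OB. It ranged from 7.10 to 9.16 TPM in WT BMM (median 7.38) and from 7.10 to 11.8 TPM in null BMM (median 9.38), and from 5.54 to 7.31 TPM in WT OC (median 6.68) and 5.18 to 10.2 TPM in null OC (median 8.22). Both pairs overlap. On summed counts it rose by log2 0.42 in BMM (SE 0.14, edgeR adjusted p = 0.0169, with 52.3% of all genes called). In OC it rose by 0.52 (SE 0.13, edgeR adjusted p = 0.00190, with 65.6% of all genes called). On log2(TPM + 0.1) the calls were lost (limma, 0.24 with adjusted p = 0.142, and 0.28 with adjusted p = 0.113), while relative to the median of all genes on that scale the values were 0.39 and 0.53. In OB, Vac14 lay between 2.37 and 3.30 TPM in WT and between 1.96 and 4.36 TPM in null, with a log2 change of -0.15 (SE 0.17, edgeR adjusted p = 0.537). Its OB libraries held 66 to 153 counts each, the fewest of any member.

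Fig4, the phosphatase subunit, was lower in null cells of the macrophage lineage. It ranged from 19.3 to 23.2 TPM in WT BMM (median 21.3) and from 11.4 to 17.7 TPM in null BMM (median 14.3). In OC it ranged from 22.2 to 28.0 TPM in WT (median 23.7) and from 10.5 to 18.3 TPM in null (median 15.2). Every null library lay below every WT library in both cell types. How many of all genes were as separate was not counted. On summed counts Fig4 fell by log2 -0.40 in BMM (SE 0.08, edgeR adjusted p = 0.000731) and -0.52 in OC (SE 0.09, edgeR adjusted p = 0.000101). Of all genes, 52.3% were called in BMM and 65.6% in OC, so a call by itself does not set Fig4 apart. Fig4 was past the threshold under each alternative listed in the methods. In OB it lay between 10.5 and 13.9 TPM in WT and between 11.95 and 15.6 TPM in null, with a log2 change of -0.08 (SE 0.08, edgeR adjusted p = 0.519).

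The genotype effects themselves were compared between cell types. For Vac14 the effect in OB was lower than that in OC by log2 -0.65 (SE 0.22, edgeR adjusted p = 0.0105) and than that in BMM by -0.55 (SE 0.22, adjusted p = 0.0337). On log2(TPM + 0.1) these differences were -0.28 and -0.23 and were not called (limma, adjusted p = 0.286 and 0.398). For Fig4 the effect in OB was above that in OC by 0.46 (SE 0.12, edgeR adjusted p = 0.00181) and above that in BMM by 0.34 (SE 0.12, adjusted p = 0.0244), the latter not called with the length and GC offset (0.11, adjusted p = 0.473). Of all genes, 55.2% were called for OB against OC and 45.9% for OB against BMM. Pikfyve, given without a test, differed by 0.60 and 0.93 on counts, and by 0.02 and 0.46 with the length and GC offset.

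Set against each other per library, the members changed their proportions with genotype. The TPM of Fig4 over that of Pikfyve was 1.81 ± 0.25 in WT cells of BMM, 2.57 ± 0.17 in those of OC and 2.97 ± 0.22 in those of OB (SD, n = 6 each). In null cells it was 1.26 ± 0.09, 1.35 ± 0.10 and 1.18 ± 0.10. No null library reached a WT library of its cell type. How many ratios of other gene pairs were as separate was not counted. The TPM of Pikfyve over that of Vac14 was between 1.35 and 1.58 in the means of 5 groups and 3.99 ± 0.83 in null OB. The OB ratios that hold Pikfyve follow from the pick.

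RANK-L was the next axis of the design. From BMM to OC in WT cells, Pikfyve fell by log2 -0.48 (SE 0.11, edgeR adjusted p = 0.000323) and Vac14 by -0.33 (SE 0.14, adjusted p = 0.0372), with 60.5% of genes called. Fig4 had 0.05 (SE 0.09, adjusted p = 0.615). The Vac14 call was lost when any of 5 libraries was left out, the smallest value being -0.28 (adjusted p = 0.0975) without WT BMM replicate 3, and on log2(TPM + 0.1) (-0.21, limma adjusted p = 0.2197). In null cells, where 12.9% of genes were called, Pikfyve had -0.14 (edgeR adjusted p = 0.388), Vac14 -0.22 (0.276) and Fig4 -0.06 (0.712). The difference between the RANK-L responses of the genotypes was 0.34 for Pikfyve (SE 0.15, edgeR adjusted p = 0.0617), 0.11 for Vac14 and -0.11 for Fig4, none of them called, against 51.4% of all genes. For Pikfyve the call depended on the setting: the adjusted p was 0.0400 in a fit of all 36 libraries and 0.00206 with the length and GC offset.

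Idh1, on the other side of the shared interval, was more abundant per length than Pikfyve in each library. It ranged from 233 to 312 TPM in WT BMM (median 281) and from 271 to 423 TPM in null BMM (median 316), and from 141 to 163 TPM in WT OC (median 149) and 249 to 346 TPM in null OC (median 290). The OC groups did not overlap. On summed counts Idh1 rose in null BMM by log2 0.37 (SE 0.09, edgeR adjusted p = 0.00260) and in null OC by 1.17 (SE 0.07, adjusted p = 1.43e-10). In OB, with 121 to 147 TPM in WT and 118 to 196 TPM in null, its log2 change was 0.0001 (SE 0.10, adjusted p = 0.999). RANK-L lowered Idh1 in WT cells by log2 -1.01 (SE 0.08, adjusted p = 1.63e-11), and the response differed between genotypes by 0.81 (SE 0.11, adjusted p = 9.66e-07). The gene on the downstream side, Pth2r (65282056 to 65389244, plus strand), a receptor gene, had at most 1 count in any library.

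The wider phosphoinositide and late endosome pathway was read in 7 lists of 87 genes, of which 84 to 86 were tested in a given comparison. In null BMM 10 rose and 38 fell, a median log2 change of -0.21 against 0.02 for all genes tested, and on log2(TPM + 0.1) the split was 3 and 49. In null OC 32 rose and 24 fell (median 0.06 against -0.03), and on the TPM scale 10 and 33. In null OB 16 rose and 15 fell (median 0.01 against 0.00), 33 and 5 on the TPM scale, and 2 and 17 with the length and GC offset. From BMM to OC in WT 22 rose and 44 fell (median -0.24 against 0.00), and 22 and 29 on the TPM scale. The direction of the lists as a whole in null OC and null OB therefore turned with the scale. The genes named below in null OB carry this limit too. Their log2 changes are on counts without the offset, and which of the 16 rises remained with it is not given here. The share of list genes called was 57.1% in BMM, 66.7% in OC and 36.05% in OB, near the share of all genes in each of these comparisons, and 77.6% from BMM to OC in WT, against 60.5% of all genes.

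**Figure D5:**
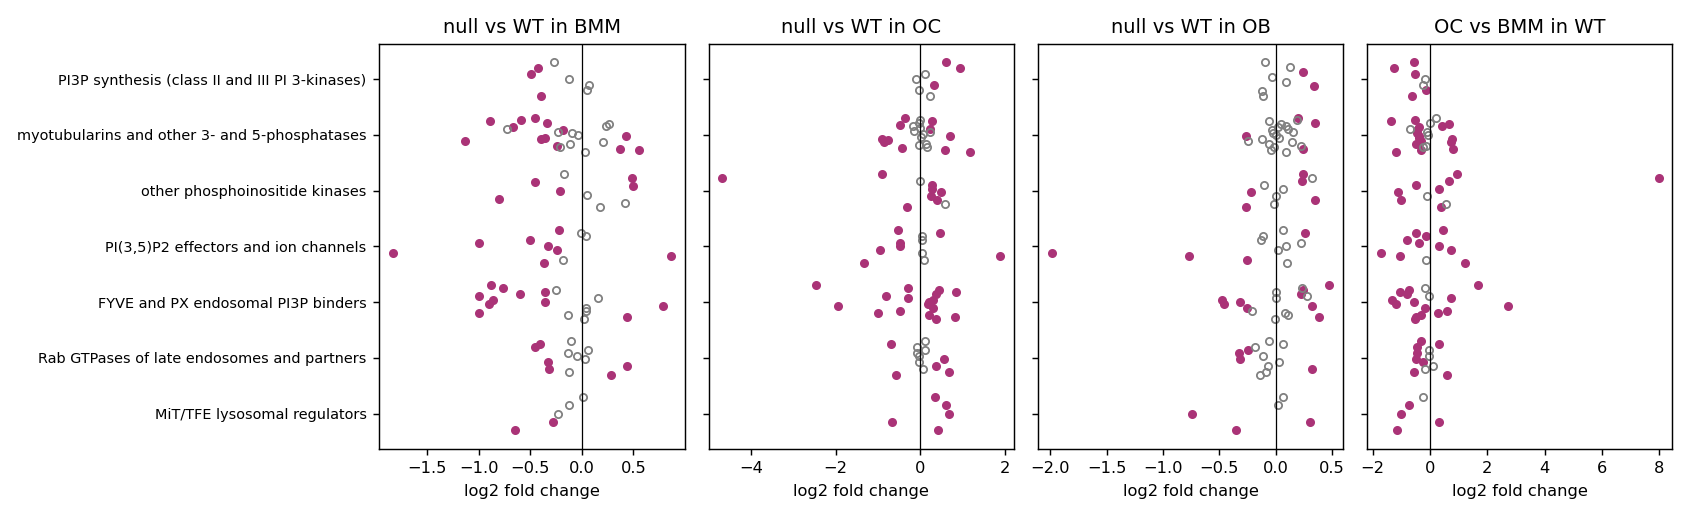
Log2 fold change on summed counts (x axis) of each tested gene in 7 lists of phosphoinositide and late endosome genes (rows), in the 3 genotype comparisons and in OC against BMM in WT. Filled points passed an adjusted p of 0.05 and open points did not; Pip5k1b lies far right in WT OC against BMM and far left in null against WT OC.

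Among makers of the substrate PI3P, none rose and 3 of 7 fell in null BMM (52.3% of all genes were called there), led by Pik3r4, the regulatory subunit of the class III kinase (15.2 ± 1.2 TPM in WT and 9.72 ± 2.64 in null, SD, n = 6 each; log2 -0.49, edgeR adjusted p = 0.00152). In null OC (65.6% of all genes called) 3 of 7 rose and none fell, led by Rubcn, a negative regulator of that kinase complex (11.9 ± 1.0 and 19.2 ± 1.2 TPM, log2 0.95, adjusted p = 1.14e-09). In null OB (32.5% of all genes called) 2 of 8 rose and none fell, led by Pik3c2a, a class II kinase (5.68 ± 0.87 and 8.16 ± 0.52 TPM, log2 0.34, adjusted p = 0.0118). Longer transcripts tended to be higher in null OB, and far fewer list genes rose there with the length and GC offset, as given above. From BMM to OC in WT (60.5% of all genes called) none rose and 5 of 7 fell, led by Rubcn (24.9 ± 1.5 and 11.9 ± 1.0 TPM, log2 -1.26, adjusted p = 2.42e-11).

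The next list holds phosphatases and inactive relatives of them. The share called was 56.5% in null BMM (52.3% of all genes) and 50% in null OC (65.6% of all genes). It was 17.4% in null OB (32.5% of all genes) and 69.6% from BMM to OC in WT (60.5% of all genes). Of these genes, 3 of 23 rose and 10 fell in null BMM. Among those that fell, Mtmr9, Mtmr10, Mtmr11, Mtmr12, Sbf1 and Sbf2 are inactive relatives. Inpp4b, a phosphoinositide 4-phosphatase, had the largest rise (35.3 ± 3.8 and 39.3 ± 5.7 TPM, log2 0.55, edgeR adjusted p = 3.94e-05). Mtmr10, an inactive relative of the myotubularin phosphatases that remove the phosphate of PI3P, fell most, from 41.6 ± 1.6 to 17.3 ± 3.2 TPM (log2 -1.13, adjusted p = 6.43e-09). In null OC 5 of 22 rose and 6 fell. Inpp4a, the relative of Inpp4b, rose from 12.2 ± 1.2 to 23.5 ± 4.3 TPM (log2 1.18, adjusted p = 3.64e-09), and Mtmr11 fell from 9.99 ± 1.13 to 4.501 ± 1.99 TPM (log2 -0.91, adjusted p = 0.000286). In null OB 3 of 23 rose, led by Sbf1, an inactive myotubularin relative (log2 0.35, adjusted p = 0.00518), and 1 fell, Mtmr14 (log2 -0.27, adjusted p = 0.00640). From BMM to OC in WT 5 of 23 rose, led by Inpp5b, a 5-phosphatase (log2 0.81, adjusted p = 6.63e-09), and 11 fell, led by Sbf2 (log2 -1.36, adjusted p = 1.60e-13).

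Other phosphoinositide kinases were called at 55.6% in null BMM (52.3% of all genes) and 80% in null OC (65.6% of all genes). In null OB 50% were called (32.5% of all genes), and 80% from BMM to OC in WT (60.5% of all genes). Among these kinases, 2 of 9 rose and 3 fell in null BMM. Pip4k2b had the largest rise on counts (log2 0.50, edgeR adjusted p = 0.00716) with TPM means of 5.40 and 5.48, and Pi4ka fell from 3.98 ± 0.53 to 2.06 ± 0.43 TPM (log2 -0.81, adjusted p = 5.40e-05). In null OC 5 of 10 rose, led by Pip4k2a (10.9 ± 1.6 and 13.1 ± 2.7 TPM, log2 0.49, adjusted p = 0.000208), and 3 fell, led by Pip5k1b. Pip5k1b, a kinase that makes PI(4,5)P2, was at 0.08 TPM in WT BMM, 12.8 ± 1.0 TPM in WT OC and 0.51 ± 0.41 TPM in null OC (SD, n = 6 each). Its level thus moved with the osteoclast markers, and it was called from BMM to OC in WT and in null OC (edgeR adjusted p = 1.09e-14 and 1.26e-08). In null OB 3 of 10 rose, led by Pi4ka (log2 0.35, adjusted p = 0.0452), and 2 fell, led by Pi4k2a (log2 -0.26, adjusted p = 0.0143). With RANK-L in WT 5 of 10 rose and 3 fell, the largest fall being that of Pip4k2a (log2 -1.12, adjusted p = 2.83e-12).

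The next list holds effectors of PI(3,5)P2, among them lysosomal channels and transporters, but also Wipi1, Wipi2, Wdr45 and Wdr45b, which are neither. In null BMM 1 of 11 rose and 7 fell, in null OC 2 rose and 5 fell, and in null OB 1 rose and 3 fell. The share called was 72.7% in null BMM (52.3% of all genes) and 63.6% in null OC (65.6% of all genes). It was 36.4% in null OB (32.5% of all genes) and 90.9% from BMM to OC in WT (60.5% of all genes). Mcoln2, a lysosomal cation channel, was the one that rose in BMM, from 34.0 ± 3.6 to 54.4 ± 6.8 TPM (log2 0.86, edgeR adjusted p = 1.66e-07), and in OC it went from 17.4 ± 2.1 to 54.6 ± 5.3 TPM (log2 1.89, adjusted p = 6.55e-13). In null OB it fell, from 6.77 ± 1.11 to 5.32 ± 1.26 TPM (log2 -0.77, adjusted p = 0.000216), and Wipi1, which binds PI3P and PI(3,5)P2, was the one that rose (log2 0.26, adjusted p = 0.00635). Mcoln3, a relative of Mcoln2, fell in null BMM from 6.70 ± 1.52 to 1.97 ± 0.56 TPM (log2 -1.83, adjusted p = 9.48e-07) and from BMM to OC in WT (log2 -1.71, adjusted p = 8.33e-07). Clcn7, the chloride-proton exchanger that osteoclasts need to acidify the resorption site, was at 122 ± 8.5 TPM in WT BMM and 308 ± 34 TPM in WT OC (log2 1.23, adjusted p = 8.37e-16). In null OC it was at 101 ± 2.7 TPM (null against WT OC log2 -1.32, adjusted p = 2.50e-12). Of the 11, 4 rose and 6 fell from BMM to OC in WT.

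Of the 17 endosomal PI3P binders, 2 rose and 9 fell in null BMM, and 5 rose and 4 fell in null OB. The share called was 64.7% in null BMM (52.3% of all genes) and 52.9% in null OB (32.5% of all genes). From BMM to OC in WT it was 88.2% (60.5% of all genes). In null OC, where 65.6% of all genes were called, all 17 were called, 10 higher and 7 lower; the direction of the 7 lists as a whole turned with the scale there, as given above. Zfyve1 had the largest rise in null OC (2.71 ± 0.24 and 4.23 ± 0.28 TPM, log2 0.85, edgeR adjusted p = 9.83e-07), and Zfyve9, an endosomal anchor of TGF-β signalling, the largest fall (1.36 ± 0.21 and 0.24 ± 0.17 TPM, log2 -2.48, adjusted p = 8.49e-06). In null OB Zfyve9 had the largest rise (2.29 ± 0.34 and 3.58 ± 0.43 TPM, log2 0.47, adjusted p = 0.00511). Snx10, a sorting nexin required for bone resorption, went from 103 ± 5.7 TPM in WT BMM to 669 ± 28 TPM in WT OC (log2 2.72, adjusted p = 2.34e-25). It was higher in null BMM, at 155 ± 10.1 TPM (log2 0.79, adjusted p = 4.98e-09), lower in null OC than in WT OC (log2 -1.95, adjusted p = 3.34e-15), and higher in null OB (log2 0.32, adjusted p = 0.0134). Plekhm1, a late endosome adaptor whose loss causes osteopetrosis, fell in null BMM from 47.1 ± 3.3 to 20.1 ± 3.0 TPM (log2 -1.002, adjusted p = 3.27e-08). The sorting nexins Snx1, Snx2, Snx3 and Snx5 were the 4 that fell in null OB, led by Snx5 (107 ± 8.9 and 89.0 ± 6.9 TPM, log2 -0.48, adjusted p = 7.37e-05). With RANK-L in WT 5 of 17 rose and 10 fell, the largest fall being that of Snx5 (log2 -1.33, adjusted p = 1.20e-16).

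Of 12 Rab GTPases and partners, 2 rose and 4 fell in null BMM, led by Rab5a, the early endosome GTPase (log2 0.43, edgeR adjusted p = 0.00556), and by Rilp, an effector of Rab7 (log2 -0.46, adjusted p = 0.00267). The share of the 12 that was called was 50% in null BMM (52.3% of all genes) and 41.7% in null OC (65.6% of all genes). It was 33.3% in null OB (32.5% of all genes) and 66.7% from BMM to OC in WT (60.5% of all genes). In null OC 3 rose and 2 fell. Mon1a, part of the factor that activates Rab7, was higher (12.04 ± 0.53 and 16.8 ± 1.9 TPM, log2 0.69, adjusted p = 1.58e-06), and Vps39, a tethering subunit of the late endosome, was lower (55.1 ± 5.3 and 30.4 ± 5.6 TPM, log2 -0.68, adjusted p = 9.16e-07). In null OB 1 rose, Mon1b (log2 0.32, adjusted p = 0.0313), and 3 fell, led by Rab9 (log2 -0.33, adjusted p = 0.00189). Between WT BMM and WT OC 2 rose, led by Ccz1, the partner of Mon1a (log2 0.58, adjusted p = 1.10e-05), and 6 fell, led by Mon1a (log2 -0.56, adjusted p = 3.47e-07).

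The 5 genes of the last list are the MiT/TFE transcription factors of lysosomal genes and their regulators. None rose and 2 fell in null BMM, led by Flcn, which restrains these factors (83.4 ± 8.4 and 48.5 ± 6.9 TPM, log2 -0.65, edgeR adjusted p = 4.40e-06). The share of the 5 that was called was 40% in null BMM (52.3% of all genes) and 60% in null OB (32.5% of all genes). From BMM to OC in WT it was 80% (60.5% of all genes). In null OC 4 rose and 1 fell, in a comparison that called 65.6% of all genes. Rragd, a GTPase through which Flcn acts, had the largest rise (6.72 ± 1.92 and 8.74 ± 2.44 TPM, log2 0.68, adjusted p = 0.00105). The one that fell was Mitf, a family member that works in osteoclasts (37.2 ± 3.4 and 20.2 ± 4.5 TPM, log2 -0.68, adjusted p = 5.52e-05). In null OB 1 rose, Mitf (log2 0.31, adjusted p = 0.00568), and 2 fell, led by Rragd (log2 -0.74, adjusted p = 0.0354). In WT OC against WT BMM 1 rose, Mitf (log2 0.33, adjusted p = 0.00555), and 3 fell, led by Flcn (log2 -1.14, adjusted p = 4.67e-13).

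Likeness of expression was measured over 36 libraries among 12392 genes as the Pearson correlation of log2(TPM + 0.1), a description in which the 6 groups dominate. Pikfyve was most like Gm42669 (r = 0.88), Baz2a, Wrn, Kmt2d and Arid1a (r = 0.86). Vac14 was most like Coro1a (r = 0.95), an actin-binding protein of blood cells, Ptprj, Gpsm3, Ptpn7 and Selplg. Fig4 was most like Lypla1 (r = 0.95), Rab31, Akap8, Mid1ip1 and Slc10a7. By Spearman's rho, 1, 0 and 2 of these 5 remained among the 5 most similar genes. The members were less like each other: r was 0.54 for Pikfyve and Vac14, 0.43 for Pikfyve and Fig4, and 0.45 for Vac14 and Fig4. Within groups, taking deviations from the 6 group means, Pikfyve and Fig4 had r = 0.81 and Pikfyve and Vac14 0.15. The genes most like Pikfyve within groups were Gm17131 (r = 0.89), Gnaq, Nsd1, Gm16300 and Tbk1.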

How the data were processed

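Total RNA was sequenced in 36 libraries in 6 groups of 6. Each library is a table of transcripts with estimated counts and TPM values, deposited by the authors. Per the submitters' processing notes, kallisto and DESeq2 were used and the build was GRCh38, although the transcript identifiers are those of mouse; the annotation release and versions are not given in the sources used here. The authors' TPM values sum to the same total in each library and hold no depth. Of 88198 transcripts, 97.5% matched GENCODE M21 (GRCm38) by identifier, and unmatched ones held 0.63% to 0.97% of counts and were left out. Where 2 identifiers shared a symbol (Hgs), the one with more counts was used.

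Estimated counts were summed per gene, rounded, reduced to the genes kept by filterByExpr, TMM-scaled and tested with edgeR 4.0.16 (quasi-likelihood, robust) in R 4.3.3, with Benjamini-Hochberg adjustment over all genes tested at a threshold of 0.05. SEs were derived from the F statistic. Genotype comparisons used 12 libraries, RANK-L comparisons 24 and those between OB and the other cells 36. Single values were tested by exact two-sided permutation. Alternatives were DESeq2 1.42.0, RLE scaling, filters of none or of at least 10 counts on average, limma 3.58.1 on log2(TPM + 0.1) or log2(TPM + 1) of genes with a mean TPM of at least 0.5, the replicate number as a block, offsets for length and GC content (lowess span 0.3) and for average transcript length, 1 fit of all libraries, and leaving out each library. Same-numbered libraries were not taken as pairs: their deviations correlated over 0.1 in 1 of 30 pairs. The steps were tested on simulated data.

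The members and lists were chosen with earlier results of these data known. The text names the members, the Pikfyve transcripts with at least 5% of the gene's TPM in a group, the genes next to Pikfyve, and from each list in each comparison the called genes with the largest change in each direction and at least 1 CPM; likeness names the 5 genes of highest r with a mean of at least 1 TPM. Snx1, Snx2, Snx3 and Snx10 in OB, Snx10 in OC and the marker S100a8 were named after their values were seen. The counts of a library limit precision by counting error only.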

Additional observations from a re-analysis of the deposited data

Results flagged for a closer look

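Vac14 stood at 9.16 TPM in WT BMM replicate 3, with the other 5 libraries of its group between 7.10 and 7.57 TPM, farther from its neighbour than the 95% limit of Dixon's test for 6 values allows. Chance passes this limit in about 1 of 20 groups, and 30 sets were examined. Without this library Vac14 was still higher in null BMM (log2 0.45, edgeR adjusted p = 0.0165).

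The genotype effect of 3 genes differed between cell types by edgeR's test of the difference. Of all genes, 55.2% were called for OB against OC, 45.9% for OB against BMM and 51.4% for OC against BMM. A call by itself therefore sets no gene apart. For Vac14 the effect in OB lay below that in OC by log2 -0.65 and below that in BMM by -0.55. For Fig4 the effect in OB lay above that in OC by 0.46 and above that in BMM by 0.34, the latter not called with the length and GC offset. For Idh1 it lay in OB below that in OC by -1.15 and below that in BMM by -0.35, and in OC above that in BMM by 0.81. These comparisons share libraries, and null OC lacked most of the osteoclast marker level of WT OC.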

How the results depend on the processing

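Under the settings listed in the methods, 364 of 418 values other than those leaving out a library stayed in the same direction and on the same side of the threshold, or within the spread, as did 433 of 444 that left one out. On log2(TPM + 0.1) and log2(TPM + 1), Pikfyve in null BMM reversed to -0.036 and -0.032 without being called; it was 0.12 with the average transcript length offset, and in null OC 0.18 and 0.17 on the TPM scales. Vac14 on the same 2 scales was weaker at 0.24 and 0.22 in BMM, 0.28 and 0.25 in OC, -0.21 and -0.18 from BMM to OC in WT, -0.28 and -0.24 for the effect in OB against OC, and -0.23 and -0.21 against BMM. Vac14 from BMM to OC was also weaker with the length and GC offset (-0.21, also with the block), and in 1 fit of all libraries (-0.33), and its effect in OB against BMM without a filter (-0.54). Fig4 in OB against BMM was 0.11 with the length and GC offset, with or without the block. The Pikfyve RANK-L interaction passed the threshold with that offset (0.45; 0.44 with the block) and in 1 fit of all libraries (0.33). Pikfyve in null OB moved to 1.26 on log2(TPM + 1), 1.16 with the length and GC offset (1.15 with the block) and 1.28 with the average transcript length offset. Its effect in OB against OC moved to 1.24, 1.09, 0.019 (0.024 with the block) and 0.80 on the 2 TPM scales, the length and GC offset and the average transcript length offset, and in OB against BMM to 1.46, 1.29, 0.46 (0.46 with the block) and 1.15. List genes higher in null went from 10 to 3 in BMM and from 32 to 10 in OC on both TPM scales, and in OB from 16 to 33 on both, 2 with the length and GC offset (also with the block) and 10 in 1 fit of all libraries; those lower in OB went from 15 to 5, and from BMM to OC in WT from 44 to 29 and 28. Leaving out 1 library each, the Pikfyve interaction ranged from 0.25 to 0.40, crossing the threshold in 6 cases, and Vac14 from BMM to OC in WT from -0.36 to -0.28, losing it in 5. Pairing by replicate number as a block gave 0.60 for Pikfyve in null BMM and 0.91 in null OC and changed no member's call. The average transcript length offset and the TPM scale differ from counts by construction in weighing transcript length; the cause of the other changes was not tested. Vac14 in OB, at 66 to 153 counts a library, is the member most limited by depth.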
